A study of Homo sapiens with 12 samples.

Results

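The genes described here are 36 transcriptional targets of p53, measured by RNA sequencing in A549, an established line from a human lung adenocarcinoma. They were taken by symbol from a list of known p53 targets, chosen with earlier results of these data known. Each symbol matched 1 Ensembl identifier, and the members are 36 of the 60617 genes in the count table. All 36 had enough counts to be tested. The 12 libraries fall into 4 groups of 3: unmodified cells (WT), cells with YTHDF1 knocked out per the genotype label (YTHDF1 KO), cells whose ARID1A was silenced by small interfering RNA (siARID1A), and cells with both changes (the combined group). YTHDF1 is a cytoplasmic protein that binds N6-methyladenosine in messenger RNA, and ARID1A belongs to the SWI/SNF complexes that remodel chromatin. The titles of the knockout libraries speak of a knockdown, no label says whether these cells are 1 clone or a pool, and no guide is named. No group is labelled with a control small interfering RNA, so effects of transfection and of lost ARID1A cannot be told apart. The titles number the libraries as biological replicates without saying what separates them, so the p-values measure the spread between these libraries.

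p53 is a transcription factor that is kept low by the ubiquitin ligase MDM2 and released from it by DNA damage, oncogene activity or ribosomal stress. It then binds paired half-sites in DNA and switches on genes that arrest the cell cycle, repair DNA, change metabolism or trigger apoptosis, and MDM2 is itself a target, which closes a negative loop. A549 cells are known to lack CDKN2A, whose ARF product restrains MDM2.

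Several members carry such sites close to a start of transcription, and these are shown because such letters are what p53 is known to bind. No binding was measured here. RefSeq promoter windows (GRCh38.p14, 250 bases before to 50 after a start) matched 30 of the 36 members, with 43 windows in all. FBXO22, GADD45A, RRM2B, TNFRSF10B, TP53INP1 and PHLDA3 had none. The windows were searched on both strands for the p53 half-site decamer, and for a pair of such decamers with at most 2 mismatches in 20 letters and a spacer of at most 13 bases. Each decamer had to keep the C and the G on either side of its central pair of bases, and mismatches were allowed at any of the remaining letters. Capitals mark the decamers, the strand is that of the gene, and a site inside an annotated untranslated region is printed without flanks.
DDB2: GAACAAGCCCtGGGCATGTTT
FAS: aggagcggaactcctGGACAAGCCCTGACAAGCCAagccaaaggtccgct
MDM2: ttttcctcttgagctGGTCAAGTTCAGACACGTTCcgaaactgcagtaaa
AEN: GGGCTTGCCCGGGCATGTGG
FDXR: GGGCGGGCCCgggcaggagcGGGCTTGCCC
SESN1: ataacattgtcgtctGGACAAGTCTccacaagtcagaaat
The DDB2 pair (chr11:47214979-47214999, untranslated region of 1 transcript and outside 2 others) had 0 mismatches and a spacer of 1 base. The FAS pair (chr10:88991309-88991328) lies in an intron, and the MDM2 pair (chr12:68808923-68808942) lies in an intron of 4 transcripts and outside 11 others. AEN (chr15:88621306-88621325, untranslated region) and FDXR (chr17:74872996-74873025, untranslated region of 3 transcripts, outside 5) also had 2 mismatches each, FDXR with a spacer of 10 bases. SESN1 (chr6:109009028-109009037, intron of 2 transcripts, outside 1) had a single decamer, as did PLK2 (AGACTTGCTT, chr5:58460209-58460218) and RPS27L (AGACAAGCCC, chr15:63157527-63157536). A pair occurred in 6 of the 43 windows (14%) against 2.93% of all 35116 promoter windows of this length, and a single exact decamer in 7 (16.3%) against 6.63%. The pair of MDM2 lies in 2 overlapping windows and is counted in both, so these are 5 distinct pairs in 5 of the 30 members with a window. A match describes letters only, and a site farther away, as is known for CDKN1A, falls outside these windows.

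Library totals ran from 30220717 to 45042635 counts. YTHDF1 stood at 88.2 ± 2.57 CPM (counts relative to the TMM-scaled library total, mean ± SD, n = 3 here and throughout) in WT and 24.9 ± 2.08 in YTHDF1 KO, a log2 change of -1.83 (SE 0.075, adjusted p = 6.47e-16). It stood at 30.95 ± 1.11 in the combined group, 1.24-fold above YTHDF1 KO (adjusted p = 0.00323) and 0.351-fold of WT. Transcript of the gene was thus still counted in both groups with the knockout, and its protein was not measured here. SE is the standard error, and a gene passed at an adjusted p under 0.05. ARID1A fell from 164 ± 14.1 to 42.5 ± 2.12 CPM in siARID1A and stood at 54.2 ± 6.51 in the combined group against 161 ± 12 in YTHDF1 KO, so that its loss was smaller in the knockout by 0.38 (SE 0.15, adjusted p = 0.0278). That difference was lost in 9 of 19 alternatives, among them without any 1 of 8 single libraries (adjusted p up to 0.0972). The alternatives are other scalings, filters, tests and fits with 1 library left out. The part of this difference in the member results was not tested. WT replicate 2 stood apart, with 4.85% of its counts from mitochondrial genes against 6.81% to 8.23% in the other libraries. A chi-square test of its counts gave 50.36 and 48.74 per degree of freedom against WT replicates 1 and 3, which differed by 12.46 from each other. Genes of chromosome 9 lay below WT in all 3 other groups by medians of -0.361 to -0.406 (log2, 712 genes), which gives them a median interaction of 0.391. Genes of chromosome 2 lay below WT in the groups with the knockout only, by -0.405 and -0.418 (1231 genes). No member is on chromosome 9, and TP53I3 alone is on chromosome 2. No label says whether the WT cells share a stock with the others, and the part of these shifts in the member results was not tested. All 14 epithelial markers had counts, 6 of them under a mean of 1 CPM. Their summed level was 7796 to 9952 CPM in WT, 6911 to 8358 in siARID1A, 3541 to 3810 in YTHDF1 KO and 3902 to 4209 in the combined group. The 16 markers of other cell types, 1 of them at 0 throughout and 13 under 1 CPM, summed to 36.1 to 62.4 CPM in WT, 45.2 to 50.2 in YTHDF1 KO, 45.2 to 62.65 in siARID1A and 40.03 to 56.6 with both changes. Single markers did change. Of the 6 tested, 2, 2 and 4 were higher than WT in YTHDF1 KO, siARID1A and the combined group, and 0 were lower. Over all genes tested 19.6%, 22.1% and 25.6% were called higher, and 20.8%, 23% and 25.9% lower. COL3A1 rose by 5.14 (adjusted p = 8.37e-13) in YTHDF1 KO and by 5.12 (adjusted p = 6.62e-13) in the combined group. In bulk libraries a change in the share of cells that express a gene and a change of RNA per cell cannot be told apart.

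The main comparison asks what ARID1A silencing did to p53 targets, and whether it did the same in the cells labelled YTHDF1 KO. In siARID1A 33 of the 36 members were higher than in WT, and none was lower. For 18 the log2 change was above 1, as it was for 1517 of all genes called higher. The largest changes were in BTG2 (4.995-fold), FDXR (4.10-fold), TP53INP1 (4.07-fold) and GDF15 (4.03-fold). Among all 18524 genes tested, 22.1% were called higher and 23% lower. The members' median change was 0.98, against -0.011 over all genes tested. No member was lower at an unadjusted p of 0.05 by edgeR's quasi-likelihood test, and DESeq2 called 0 lower as well. Over all genes the same tests called 4845 and 3823 lower. SESN2, XPC and PMAIP1 were the 3 that did not pass.

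When ARID1A was silenced in YTHDF1 KO cells, 19 of the 36 members rose and none passed as lower, against 12.5% and 10.9% of all genes tested. The median change was 0.28. No member was lower at an unadjusted p of 0.05, by edgeR's test, and DESeq2 called 0. Over all genes the same tests called 3006 and 2093 lower. A fit of only the libraries of these groups did call 2 members lower, against 2932 of all genes. The rise of AEN in the knockout was lost without any 1 YTHDF1 KO or combined library (adjusted p up to 0.184), and that of EDA2R without YTHDF1 KO replicate 2 or 3 or any 1 combined library (up to 0.231). The interaction, the change with siARID1A in knockout cells minus that in WT cells, was tested itself. It was below 0 for 34 of 36 members, where 9721 of the 18524 genes tested were above 0. The interaction passed the threshold for 26, all of them negative, against 8.22% of all genes tested that were called negative and 8.87% called positive. The median interaction was -0.669 over the members and 0.024 over all genes tested. No member had a positive interaction at an unadjusted p of 0.05, against 2846 of all genes tested. DESeq2 called 0 members positive and 27 negative, against 1540 and 1709 over all genes. The 26 negative interactions passed under every one of 19 alternatives, with an adjusted p of at most 0.0485.

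**Figure D1:**
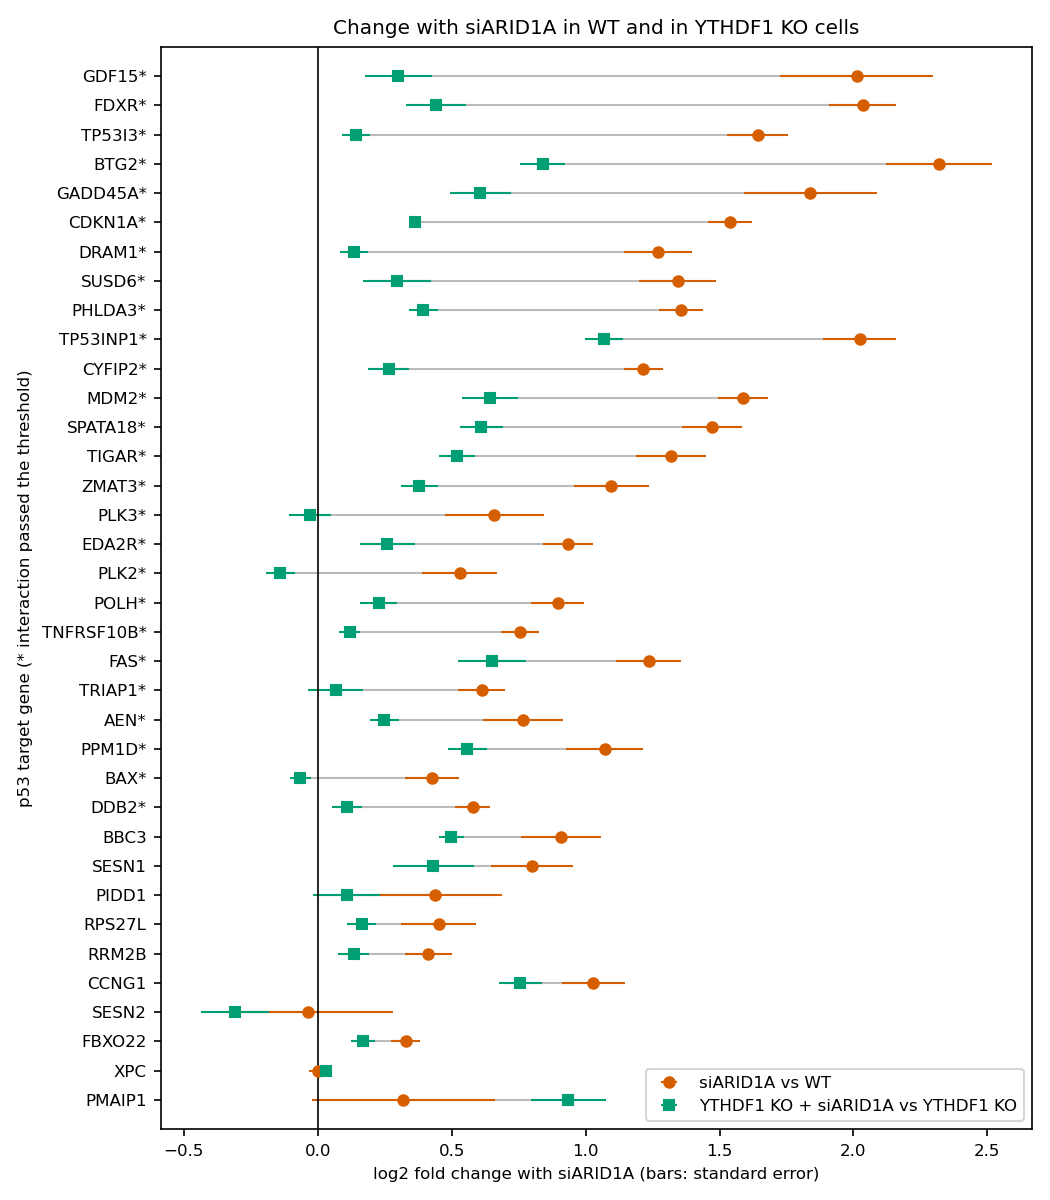
Log2 fold change with ARID1A silencing for each of the 36 p53 target genes, in WT cells (circles) and in YTHDF1 KO cells (squares), with standard errors as bars and a line joining both values of a gene. Genes are ordered by the interaction, an asterisk marks the 26 that passed, and the squares lie left of the circles for 34 of 36 genes.

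The same order is seen library by library, in the same 12 libraries that gave the calls above. All 3 siARID1A libraries lay above the 9 others for 28 of the 36 members, against 8.57% of all genes tested. The exceptions were PMAIP1, SESN1, SESN2, GDF15, XPC, PPM1D, PLK3 and PIDD1. Against the WT mean, the median member stood 0.835 to 1.076 higher (log2) in the siARID1A libraries, 0.366 to 0.515 in the combined libraries and 0.116 to 0.163 in YTHDF1 KO. The ranges of these 3 groups do not overlap. The median coefficient of variation over members was 4.51% in YTHDF1 KO, 6.21% in the combined group, 9.91% in siARID1A and 10.2% in WT. Over the 9557 genes with a mean of at least 10 CPM it was 4.45%, 5.5%, 6.26% and 8.28% in the same order, so that the median was higher over the members in all 4 groups, most so in siARID1A.

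**Figure D2:**
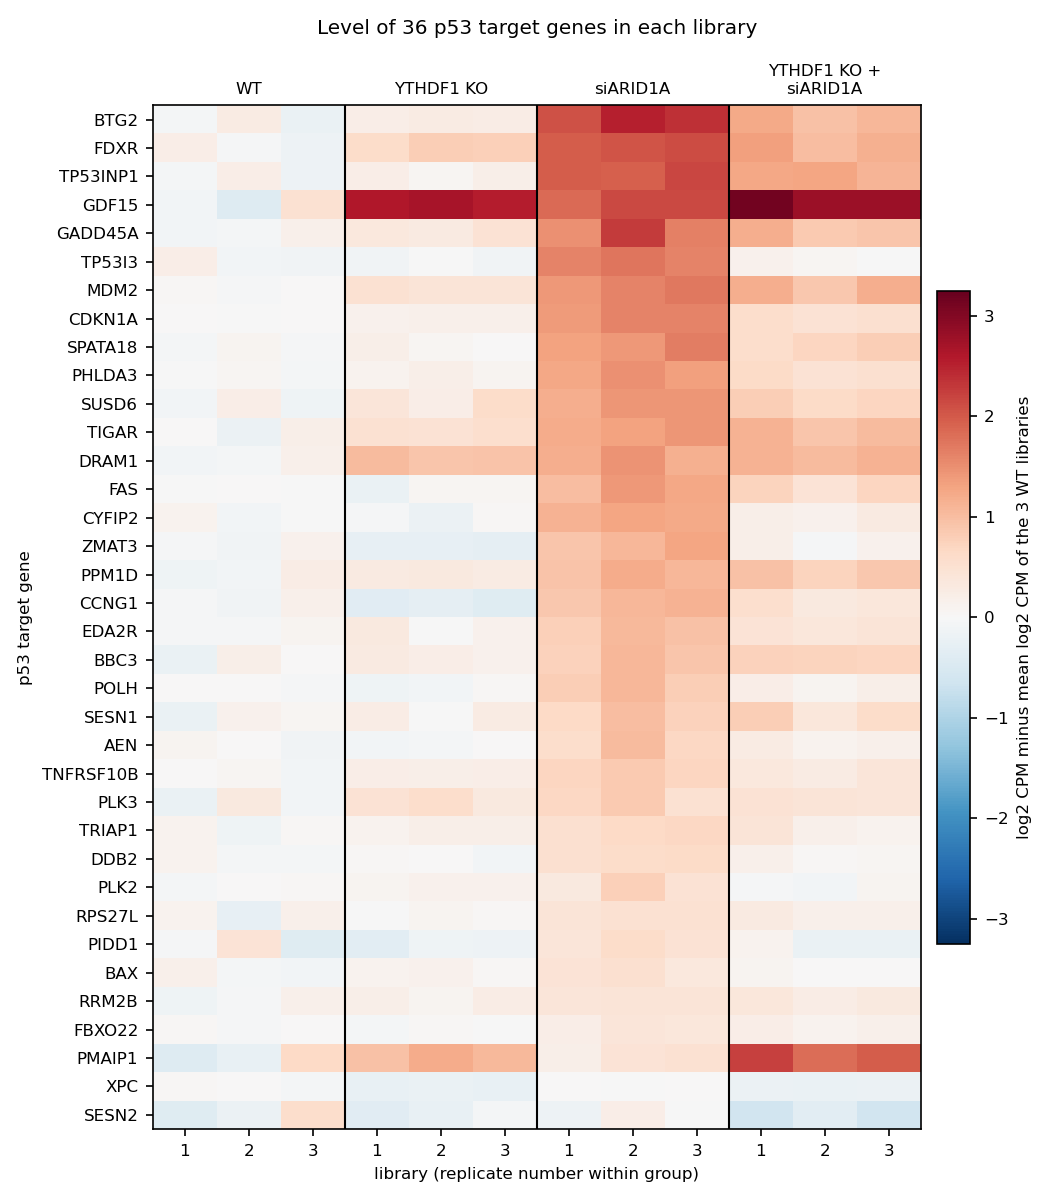
Level of each of the 36 p53 target genes in each of the 12 libraries, as log2 CPM minus the mean of the 3 WT libraries (red higher, blue lower), with genes ordered by their change in siARID1A vs WT. The siARID1A columns are the reddest for most genes, while GDF15 and PMAIP1 are highest in the combined group and XPC and SESN2, at the bottom, did not pass in siARID1A.

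Of the feedback genes, MDM2, the ligase that marks p53 for degradation (ENSG00000135679, chromosome 12, 68808176 to 68850686, plus strand), stood at 90.2, 85.8 and 89.9 CPM in WT and 126, 118 and 118 in the knockout, and at 237, 269 and 293 with siARID1A alone and 201, 164 and 202 with both changes. No libraries of different groups overlapped, and the order was WT, YTHDF1 KO, combined, siARID1A. The change with siARID1A was 1.59 (SE 0.092, adjusted p = 1.93e-13) in WT and 0.64 (SE 0.10, adjusted p = 2.26e-06) in the knockout, with an interaction of -0.94 (adjusted p = 2.4e-06). Exons of MDM2 overlap those of CPM, the carboxypeptidase M gene, by 133 bases on the opposite strand, so a part of its counts is uncertain. PPM1D, the WIP1 phosphatase that switches p53 signalling off, stood at 21.2 ± 3.07 CPM in WT and 25.9 ± 0.386 in the knockout, and at 44.5 ± 4.61 with siARID1A alone and 38.1 ± 3.29 with both changes. It rose with siARID1A by 1.07 (adjusted p = 4.45e-09) in WT and by 0.56 (adjusted p = 0.000158) in YTHDF1 KO, with an interaction of -0.51 (adjusted p = 0.0119). Cyclin G1, CCNG1, recruits a phosphatase to MDM2 (ENSG00000113328, chromosome 5, 163437569 to 163446151, plus strand), and stood at 106, 100.4 and 123 CPM in WT and 84.97, 89.5 and 83.5 in the knockout, and at 200.3, 232 and 239 with siARID1A alone and 161, 136 and 139.8 with both changes. Its YTHDF1 KO libraries were below all others and its siARID1A libraries above all others. It rose by 1.03 (SE 0.12, adjusted p = 4.2e-10) with siARID1A in WT and by 0.76 (SE 0.081, adjusted p = 2.68e-07) in the knockout. These 2 changes differed by -0.27, which did not pass (adjusted p = 0.119).

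MDM4, the partner of MDM2 that blocks p53 without degrading it, stood at 39.3 ± 2.83 CPM in WT and 40.3 ± 1.77 in the knockout, and at 34.5 ± 1.87 with siARID1A alone and 38.5 ± 2.31 with both changes, and no comparison of it passed. CDKN2A was at 0 CPM in every library except WT replicate 2 at 0.177. The p53 relatives were low, TP63 at means of 1.45 to 2.85 CPM and TP73 at 0.141 to 0.321.

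The cell cycle genes among the members showed some of the largest interactions. CDKN1A encodes p21, the inhibitor of cyclin-dependent kinases through which p53 arrests cells (ENSG00000124762, chromosome 6, 36676460 to 36687339, plus strand). It stood at 159, 156 and 159.6 CPM in WT and 175, 176 and 176 in the knockout, and at 409, 482 and 486 with siARID1A alone and 233, 221 and 225 with both changes. The siARID1A libraries were far above the rest, and the 4 groups did not overlap. CDKN1A rose 2.90-fold with siARID1A in WT, a log2 change of 1.54 (SE 0.082, adjusted p = 1.55e-14), and 1.29-fold in the knockout, 0.36 (SE 0.023, adjusted p = 0.000353). The interaction was -1.17 (adjusted p = 6.8e-09). BTG2, an antiproliferative cofactor of messenger RNA deadenylation (ENSG00000159388, chromosome 1, 203305491 to 203309602, plus strand), stood at 12.6, 16.1 and 11.4 CPM in WT and 15.5, 16.01 and 15.7 in the knockout, and at 55.9, 77.1 and 68.4 with siARID1A alone and 31.1, 25.5 and 28 with both changes. Its WT and YTHDF1 KO libraries overlapped, the combined libraries were higher and the siARID1A libraries higher still. BTG2 had the largest rise of any member with siARID1A in WT, 2.32 (SE 0.20, adjusted p = 5.93e-13), a smaller one in the knockout, 0.84 (SE 0.084, adjusted p = 1.44e-05), and an interaction of -1.48 (adjusted p = 1.15e-06). GADD45A, a stress sensor that binds p21 and cyclin-dependent kinase 1 (ENSG00000116717, chromosome 1, 67685061 to 67688338, plus strand), stood at 27.6, 28.02 and 32.8 CPM in WT and 37.4, 36.3 and 40.6 in the knockout, and at 82.7, 141 and 92.3 with siARID1A alone and 66.5, 52.6 and 55.1 with both changes. Its siARID1A libraries were the highest and had the widest spread of any member in that group, a coefficient of variation of 29.7%. It rose by 1.84 (SE 0.25, adjusted p = 2.71e-06) in WT, with an interaction of -1.23 (adjusted p = 0.00385). The rise in the knockout, 0.61 (adjusted p = 0.0226), was lost without any 1 of 5 libraries (WT replicate 2, YTHDF1 KO replicates 1 and 2, combined replicates 1 and 3; adjusted p up to 0.1).

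For the polo-like kinases PLK2 and PLK3, which act in centriole duplication and in stress checkpoints, the change with siARID1A in the knockout did not pass. PLK2 stood at 194 ± 7 CPM in WT and 211 ± 4.68 in the knockout, and at 279.7 ± 47.1 with siARID1A alone and 192 ± 11.6 with both changes, and rose with siARID1A in WT by 0.53 (adjusted p = 1.79e-05), whereas its value in YTHDF1 KO was -0.14 (adjusted p = 0.269). The interaction was -0.67 (adjusted p = 0.000309). PLK3 stood at 9.26 ± 1.81 CPM in WT and 12.6 ± 1.13 in the knockout, and at 14.7 ± 1.72 with siARID1A alone and 12.3 ± 0.374 with both changes, with 0.66 (adjusted p = 0.000189) for siARID1A in WT and an interaction of -0.69 (adjusted p = 0.00968). In the knockout its level was 12.6 CPM before silencing and 12.3 after.

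**Figure D3:**
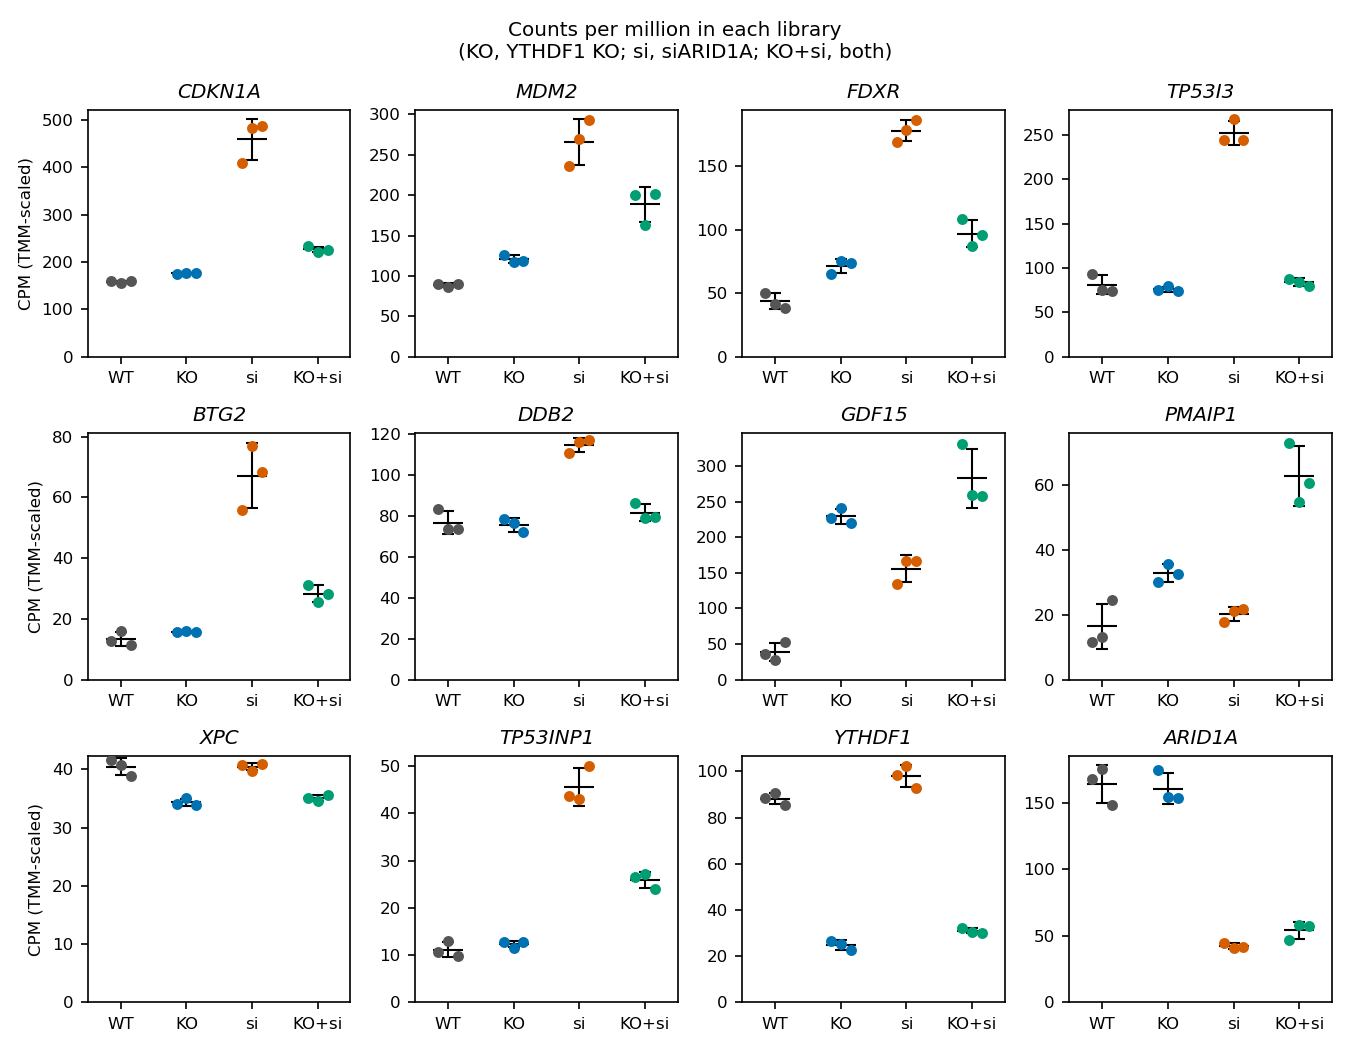
CPM (scaled by TMM factors) of 10 p53 target genes and of the targeted genes YTHDF1 and ARID1A in each of the 12 libraries (points), with the group mean (horizontal mark) and SD (bar), n = 3. CDKN1A, FDXR, TP53I3, BTG2 and TP53INP1 are highest in siARID1A and much lower in the combined group, whereas GDF15 and PMAIP1 are highest in the combined group.

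Among the apoptosis genes, the death receptor FAS (ENSG00000026103, chromosome 10, 88990582 to 89015785, plus strand), whose intronic site is printed above, stood at 14.9, 15.1 and 14.9 CPM in WT and 12.9, 15.6 and 15.7 in the knockout, and at 29.9, 39.95 and 35.9 with siARID1A alone and 24.8, 20.4 and 24.2 with both changes. The WT and YTHDF1 KO libraries overlapped, and both sets with siARID1A were higher. FAS rose by 1.24 (SE 0.12, adjusted p = 1.97e-09) in WT and by 0.65 (SE 0.13, adjusted p = 9.67e-05) in the knockout, with an interaction of -0.59 (adjusted p = 0.00945). Its exons share 380 bases with ACTA2 on the opposite strand. ACTA2 stood at 3.38 CPM in WT and 22.1 in siARID1A, 6.50-fold higher (adjusted p = 2.57e-14), and since the strand setting of the counting is not given in the sources used here, some FAS and ACTA2 counts may be exchanged. TNFRSF10B, the TRAIL receptor DR5, stood at 247 ± 13.7 CPM in WT and 285 ± 4.34 in the knockout, and at 417 ± 27.3 with siARID1A alone and 309.8 ± 13.5 with both changes, rose by 0.75 (adjusted p = 3.56e-09) in WT and had an interaction of -0.63 (adjusted p = 4.76e-05). EDA2R, a receptor of the tumour necrosis factor family, stood at 30.4 ± 1.73 CPM in WT and 33.8 ± 4.06 in the knockout, and at 57.9 ± 5.49 with siARID1A alone and 40.5 ± 1.22 with both changes, with a change of 0.93 (adjusted p = 7.11e-09) in WT and an interaction of -0.67 (adjusted p = 0.000457).

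Of the 3 BCL2 family members, BAX and BBC3 rose with siARID1A in WT and PMAIP1 did not pass. BAX, which permeabilises the mitochondrial outer membrane, had the highest level of all members per kilobase of exon in WT (67.1 CPM per kb), and stood at 174 ± 18.2 CPM in WT and 185 ± 6.13 in the knockout, and at 233 ± 15 with siARID1A alone and 177 ± 5.92 with both changes. It rose by 0.43 (SE 0.10, adjusted p = 4.37e-05) in WT, and its level in the knockout was 185 CPM before silencing and 177 after. The interaction was -0.49 (adjusted p = 0.00156). BBC3, the BH3-only protein PUMA, stood at 10.2 ± 1.44 CPM in WT and 11.9 ± 0.642 in the knockout, and at 19.3 ± 2.17 with siARID1A alone and 16.8 ± 0.336 with both changes. It rose in both backgrounds, by 0.91 (adjusted p = 5.2e-07) in WT and 0.50 (adjusted p = 0.00199) in the knockout, and the difference of these changes, -0.41, did not pass (adjusted p = 0.0849). PMAIP1, the BH3-only protein NOXA (ENSG00000141682, chromosome 18, 59899948 to 59904306, plus strand), stood at 11.6, 13.2 and 24.3 CPM in WT and 30.1, 35.7 and 32.4 in the knockout, and at 17.7, 21.2 and 21.8 with siARID1A alone and 72.6, 54.7 and 60.5 with both changes. The combined libraries were above all others, YTHDF1 KO came next, and siARID1A lay within the range of WT. WT replicate 3 was well above the other WT libraries, and the coefficient of variation in WT was 42.4%. PMAIP1 rose by 1.01 (SE 0.34, adjusted p = 0.00604) in YTHDF1 KO, and the change with siARID1A was 0.32 (SE 0.34, adjusted p = 0.324) in WT. In the knockout it rose by 0.94 (SE 0.14, adjusted p = 0.0134), a call lost without YTHDF1 KO replicate 1 or combined replicate 1 (adjusted p = 0.0533 and 0.0547). Its positive interaction of 0.62 did not pass (adjusted p = 0.26).

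The 5 further apoptosis genes of the list were higher in siARID1A than in WT and lower in the combined group than in siARID1A. Against WT the combined group passed as higher for TP53INP1, PHLDA3 and TRIAP1, and not for AEN (log2 change 0.19, adjusted p = 0.0822) or PIDD1 (-0.15, adjusted p = 0.443). TP53INP1, a cofactor that promotes phosphorylation of p53 (ENSG00000164938, chromosome 8, 94925972 to 94949411, minus strand), stood at 10.6, 13 and 9.93 CPM in WT and 12.8, 11.6 and 12.7 in the knockout, and at 43.6, 43.03 and 50.1 with siARID1A alone and 26.5, 27.3 and 24.1 with both changes. Its WT and YTHDF1 KO libraries were close together, the combined libraries were higher and siARID1A highest. It rose by 2.02 (SE 0.14, adjusted p = 1.4e-13) in WT and by 1.07 (SE 0.070, adjusted p = 3.54e-08) in YTHDF1 KO, the largest rise of a member in that background. The interaction was -0.95 (adjusted p = 4.32e-05). PHLDA3, an inhibitor of AKT (ENSG00000174307, chromosome 1, 201464383 to 201469237, minus strand), stood at 89.6, 94.2 and 85.6 CPM in WT and 97.3, 103 and 95.4 in the knockout, and at 213, 251 and 226 with siARID1A alone and 137, 124 and 128 with both changes. The siARID1A libraries were highest and the combined libraries lay between them and the rest. It rose by 1.36 (SE 0.081, adjusted p = 2.26e-13) in WT and 0.39 (SE 0.054, adjusted p = 0.000213) in the knockout, with an interaction of -0.96 (adjusted p = 2.21e-07). AEN, a nuclease induced in apoptosis, stood at 132 ± 9.32 CPM in WT and 126 ± 4.68 in the knockout, and at 224 ± 38.1 with siARID1A alone and 150 ± 8.44 with both changes, with 0.77 (adjusted p = 2.08e-07) in WT and an interaction of -0.52 (adjusted p = 0.00528). TRIAP1, a small survival protein of mitochondria, stood at 38.97 ± 3.40 CPM in WT and 43.7 ± 1.40 in the knockout, and at 59.5 ± 3.41 with siARID1A alone and 45.8 ± 5.53 with both changes, with 0.61 (adjusted p = 2.78e-06) in WT and an interaction of -0.55 (adjusted p = 0.00243). PIDD1, the scaffold of the PIDDosome, was the one rise in siARID1A that did not hold throughout. It stood at 25.5, 35.3 and 19.7 CPM in WT and 20.6, 23.7 and 23.1 in the knockout, and at 34.4, 39.3 and 35.8 with siARID1A alone and 28.02, 22.3 and 22.4 with both changes, with WT replicate 2 above the other WT libraries and within the range of siARID1A. Its change of 0.44 (adjusted p = 0.0314) was lost in 5 of 20 alternatives, among them without WT replicate 1 or 3 or siARID1A replicate 2 or 3 (adjusted p 0.0966, 0.0975, 0.113 and 0.0777). Without WT replicate 2 it was 0.71. PIDD1 also shares 107 exon bases with the ribosomal protein gene RPLP2, which had 189661 counts over all libraries against 12164 for PIDD1.

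The metabolic and stress members included the 3 most negative interactions of the list, those of GDF15, FDXR and TP53I3. FDXR, ferredoxin reductase, passes electrons to mitochondrial cytochromes P450 and iron-sulfur cluster assembly (ENSG00000161513, chromosome 17, 74862497 to 74873031, minus strand). It stood at 50.4, 41.7 and 38.2 CPM in WT and 65.1, 75.2 and 73.4 in the knockout, and at 169, 179 and 186 with siARID1A alone and 108, 86.8 and 95.4 with both changes, in 4 groups that did not overlap. FDXR rose 4.10-fold with siARID1A in WT (log2 change 2.03, SE 0.12, adjusted p = 5.72e-14), by 0.44 (SE 0.11, adjusted p = 0.000917) in the knockout, and the interaction was -1.59 (adjusted p = 8.53e-09). TP53I3, a quinone oxidoreductase also known as PIG3 (ENSG00000115129, chromosome 2, 24077433 to 24085861, minus strand), stood at 93.1, 75.5 and 73.8 CPM in WT and 74.8, 79.2 and 73.6 in the knockout, and at 244, 268 and 245 with siARID1A alone and 87.8, 84.3 and 79.4 with both changes. The siARID1A libraries were far above the 9 others. The combined libraries lay just above all YTHDF1 KO libraries, and WT overlapped with both. It rose 3.12-fold in WT (log2 change 1.64, SE 0.12, adjusted p = 4.84e-14), while in the knockout the change was 0.14 and did not pass (adjusted p = 0.214). The interaction was -1.50 (adjusted p = 1.37e-09). Genes of its chromosome, which lay lower in cells with the knockout, had a median interaction of 0.013, and the part of that shift in the values of TP53I3 was not tested. TIGAR, a phosphatase that lowers glycolytic flux, stood at 17.8 ± 2.34 CPM in WT and 25.02 ± 0.722 in the knockout, and at 44.1 ± 3.64 with siARID1A alone and 35.9 ± 2.68 with both changes. It rose by 1.32 (adjusted p = 7.18e-11) in WT and by 0.52 (adjusted p = 0.000229) in the knockout, and the interaction was -0.80 (adjusted p = 0.000138).

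GDF15, a secreted stress cytokine (ENSG00000130513, chromosome 19, 18374731 to 18389176, plus strand), had the largest rise of any member in YTHDF1 KO. It stood at 35.4, 28.1 and 53.02 CPM in WT and 226, 241 and 220.4 in the knockout, and at 134, 167 and 167 with siARID1A alone and 331, 259.6 and 257 with both changes. WT was lowest, siARID1A intermediate and YTHDF1 KO above it, and the combined libraries were above all others. GDF15 rose 5.93-fold in YTHDF1 KO (log2 change 2.57, SE 0.27, adjusted p = 2.37e-06) and 4.03-fold in siARID1A (log2 change 2.01, SE 0.29, adjusted p = 1.55e-05), each against WT. The change with siARID1A in the knockout was 0.30 (adjusted p = 0.322), and the interaction, -1.71 (adjusted p = 0.00183), was the most negative of any member. Of the sestrins, which restrain mTORC1, SESN1 stood at 10.4 ± 1.34 CPM in WT and 11.7 ± 1.15 in the knockout, and at 18.2 ± 2.36 with siARID1A alone and 15.7 ± 2.35 with both changes, and rose by 0.80 (adjusted p = 1.87e-05) in WT. Its rise of 0.43 (adjusted p = 0.0163) in the knockout was lost without YTHDF1 KO replicate 2 or combined replicate 1 (adjusted p = 0.104 and 0.125). SESN2 stood at 11.8, 13.4 and 23.1 CPM in WT and 11.9, 12.97 and 14.7 in the knockout, and at 13.7, 17.7 and 15.3 with siARID1A alone and 9.91, 12.03 and 9.88 with both changes. WT replicate 3 was above all other libraries, and every siARID1A library was above every combined library, while the other pairs of groups overlapped. It fell by 0.55 in the combined group vs siARID1A (adjusted p = 0.0443) and by 0.59 in the combined group vs WT (adjusted p = 0.0226), the latter a call lost in 5 of 20 alternatives, among them without WT replicate 3 (-0.24, adjusted p = 0.144), combined replicate 1 (0.0832) or combined replicate 3 (0.083).

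Of the 4 DNA repair members, 3 rose with siARID1A in WT, each by less than 1 on the log2 scale. DDB2, which recognises ultraviolet lesions and has the exact paired site printed above (ENSG00000134574, chromosome 11, 47214465 to 47239240, plus strand), stood at 83.1, 73.3 and 73.4 CPM in WT and 78.2, 76.5 and 71.8 in the knockout, and at 110.3, 116 and 117 with siARID1A alone and 86.3, 78.7 and 79.4 with both changes. The siARID1A libraries were above the 9 others. The combined libraries lay just above all YTHDF1 KO libraries, and WT overlapped with both. It rose by 0.58 (SE 0.065, adjusted p = 2.79e-07) in siARID1A, and the interaction was -0.47 (adjusted p = 0.00142). POLH, the translesion polymerase eta, stood at 21.6 ± 0.580 CPM in WT and 20.7 ± 1.39 in the knockout, and at 40.3 ± 4.78 with siARID1A alone and 24.3 ± 1.15 with both changes, with 0.90 (adjusted p = 2.16e-08) for siARID1A in WT and an interaction of -0.67 (adjusted p = 0.000686). RRM2B, the p53-induced subunit of ribonucleotide reductase, stood at 68.5 ± 7.30 CPM in WT and 77.1 ± 4.22 in the knockout, and at 91.2 ± 1.37 with siARID1A alone and 84.7 ± 3.60 with both changes, and rose by 0.41 (adjusted p = 7.06e-05) in WT. Its interaction, -0.28 (adjusted p = 0.0729), did not pass. XPC, the damage sensor of nucleotide excision repair, had a siARID1A level nearer to WT than any other member, at 41.6, 40.8 and 38.8 CPM in WT and 34.1, 35.05 and 33.9 in the knockout, and at 40.7, 39.8 and 40.9 with siARID1A alone and 35.1, 34.5 and 35.6 with both changes. The YTHDF1 KO and combined libraries lay below all WT and siARID1A libraries. XPC fell by 0.24 in YTHDF1 KO (adjusted p = 0.011), a call lost with library totals (-0.14, adjusted p = 0.149) and with no filter on low counts (-0.22, 0.0739). It shares 318 exon bases with LSM3.

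The remaining members have other roles. SUSD6, a membrane protein also called DRAGO (ENSG00000100647, chromosome 14, 69611596 to 69715142, plus strand), stood at 16.9, 20.9 and 16.3 CPM in WT and 23.6, 20.7 and 27.2 in the knockout, and at 40.4, 49.04 and 48.4 with siARID1A alone and 31.4, 27.5 and 28.96 with both changes. The siARID1A libraries were above all others. It rose by 1.34 (SE 0.14, adjusted p = 4.86e-10) in WT, the value in the knockout was 0.30 (adjusted p = 0.0505), and the interaction was -1.05 (adjusted p = 2.62e-05). DRAM1, a lysosomal membrane protein that promotes autophagy (ENSG00000136048, chromosome 12, 101877351 to 102012130, plus strand), stood at 29.6, 29.9 and 35.2 CPM in WT and 64.6, 58.9 and 60.1 in the knockout, and at 70.96, 86.5 and 70.7 with siARID1A alone and 68.8, 63.98 and 68.8 with both changes. WT was below all 3 other groups, and siARID1A was highest. DRAM1 rose by 0.96 (SE 0.090, adjusted p = 1.77e-09) in YTHDF1 KO and by 1.27 (SE 0.13, adjusted p = 1.93e-11) in siARID1A. Silencing in the knockout gave 0.13 (adjusted p = 0.279), with an interaction of -1.13 (adjusted p = 2.54e-07).

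SPATA18, also called MIEAP, acts in mitochondrial quality control and stood at 10.2 ± 0.528 CPM in WT and 10.8 ± 0.635 in the knockout, and at 28.2 ± 3.57 with siARID1A alone and 16.4 ± 1.26 with both changes. It rose by 1.47 (adjusted p = 7.18e-11) in WT and by 0.61 (adjusted p = 0.000165) in the knockout, with an interaction of -0.86 (adjusted p = 0.000237). CYFIP2, a subunit of the WAVE actin regulatory complex, stood at 82.7 ± 5.94 CPM in WT and 79.2 ± 5.80 in the knockout, and at 192 ± 9.40 with siARID1A alone and 95.1 ± 5.19 with both changes, with a rise of 1.21 (adjusted p = 2.35e-12) in WT and an interaction of -0.95 (adjusted p = 3.89e-07). Its rise of 0.26 (adjusted p = 0.0102) in the knockout was lost without YTHDF1 KO replicate 2 (0.0894) or combined replicate 3 (0.0756). ZMAT3, a zinc finger protein that regulates splicing, stood at 28.2 ± 2.75 CPM in WT and 23.2 ± 0.216 in the knockout, and at 60.1 ± 8.22 with siARID1A alone and 30.1 ± 2.41 with both changes. It rose by 1.10 (adjusted p = 1.54e-09) in WT and 0.38 (adjusted p = 0.00558) in the knockout, with an interaction of -0.72 (adjusted p = 0.000518). RPS27L, a paralog of ribosomal protein S27, stood at 173 ± 27.5 CPM in WT and 177 ± 6.17 in the knockout, and at 236 ± 6.87 with siARID1A alone and 198 ± 10.6 with both changes, and rose by 0.45 (adjusted p = 0.000115) in WT, with an interaction of -0.29 (adjusted p = 0.108) that did not pass. Reads of RPS27L can be shared with RPS27. FBXO22, a substrate receptor of a ubiquitin ligase, stood at 99.5 ± 2.63 CPM in WT and 99.2 ± 3.46 in the knockout, and at 125 ± 7.36 with siARID1A alone and 112 ± 4.25 with both changes, with 0.33 (adjusted p = 0.000227) in WT, and it shares 1917 exon bases with NRG4.

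In YTHDF1 KO alone members passed in both directions. Against WT 10 of the 36 rose and 3 fell, against 19.6% and 20.8% of all genes tested, and the median change was 0.148. GDF15, PMAIP1, DRAM1 and FDXR had the largest rises, with FDXR at 0.71 (adjusted p = 1.16e-06). MDM2 rose by 0.45 (adjusted p = 0.000104), TIGAR by 0.50 (adjusted p = 0.000181), and CCNG1 fell by 0.35 (adjusted p = 0.00151). CDKN1A, at 0.15 (adjusted p = 0.0825), did not pass although its KO libraries were all above WT. Scaled by library totals alone, 17 rose and 1 fell, where 4765 of all genes tested were called higher and 3016 lower. That scaling moved the median of all genes by 0.092. Of the 13 calls, 6 were lost in at least 1 of 20 alternatives. PPM1D (log2 change 0.29, adjusted p = 0.0247) was lost without WT replicate 1 or 2 or any 1 YTHDF1 KO library (adjusted p up to 0.117). TNFRSF10B (log2 change 0.21, adjusted p = 0.0189) was lost without WT replicate 3 or YTHDF1 KO replicate 1 or 3 (up to 0.0837). ZMAT3, which fell by 0.28 (adjusted p = 0.0239), was lost with library totals and without WT replicate 3 or any 1 YTHDF1 KO library (up to 0.149). PLK3 (log2 change 0.44, adjusted p = 0.00879) was lost without WT replicate 1 (0.0627) or YTHDF1 KO replicate 2 (0.0552), and SUSD6 (log2 change 0.40, adjusted p = 0.00558) without YTHDF1 KO replicate 3 (0.0606). XPC, given above, was the sixth.

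Set against WT, the combined group had 25 members higher and 2 lower, where 25.6% and 25.9% of all genes tested were called, and the median change was 0.412. The largest rises were 2.87 for GDF15, 1.95 for PMAIP1, 1.21 for TP53INP1 and 1.15 for FDXR. The 2 lower members were SESN2 and XPC (log2 change -0.21, adjusted p = 0.0199), and neither call held under every alternative, since XPC was lost without WT replicate 1 (adjusted p = 0.0552) or combined replicate 1 (0.0507) or 2 (0.0656). Rises of 4 other members were lost without single libraries. CYFIP2 was lost without WT replicate 2 or 3 or combined replicate 3 (adjusted p up to 0.132), TRIAP1 without WT replicate 2 or combined replicate 1 (up to 0.239), and PLK3 without WT replicate 1 (0.076). FBXO22 was lost without any 1 of 6 libraries, namely WT replicates 2 and 3, YTHDF1 KO replicates 1 and 3, and combined replicates 1 and 3 (up to 0.136).

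Most members were lower where the knockout was added to ARID1A silencing. In the combined group vs siARID1A 27 of 36 were lower and 2 higher, against 17.2% and 18.2% of all genes tested, with a median of -0.531. TP53I3 had the largest fall, -1.59 (SE 0.061, adjusted p = 4.83e-14), followed by BTG2 (log2 change -1.25, adjusted p = 7.39e-09), CDKN1A (log2 change -1.02, adjusted p = 1.43e-11) and CYFIP2 (log2 change -1.01, adjusted p = 4.75e-11). The 1231 genes of chromosome 2, where TP53I3 lies, had a median of -0.423 in this comparison. PMAIP1 (log2 change 1.63, adjusted p = 0.00028) and GDF15 (log2 change 0.86, adjusted p = 0.00576) were the 2 that were higher. This comparison shares the siARID1A libraries with siARID1A vs WT. The interaction is built from the libraries of all 4 groups, and both of these comparisons are part of it. The counts of these comparisons and of the interaction are therefore not independent of one another. The falls of SESN2, XPC, TIGAR and RPS27L were lost in 8, 7, 3 and 5 of 20 alternatives (adjusted p up to 0.166, 0.205, 0.0925 and 0.0968). TIGAR was lost without siARID1A replicate 3 or combined replicate 2, and RPS27L without either of these or siARID1A replicate 2 or combined replicate 3.

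**Figure D4:**
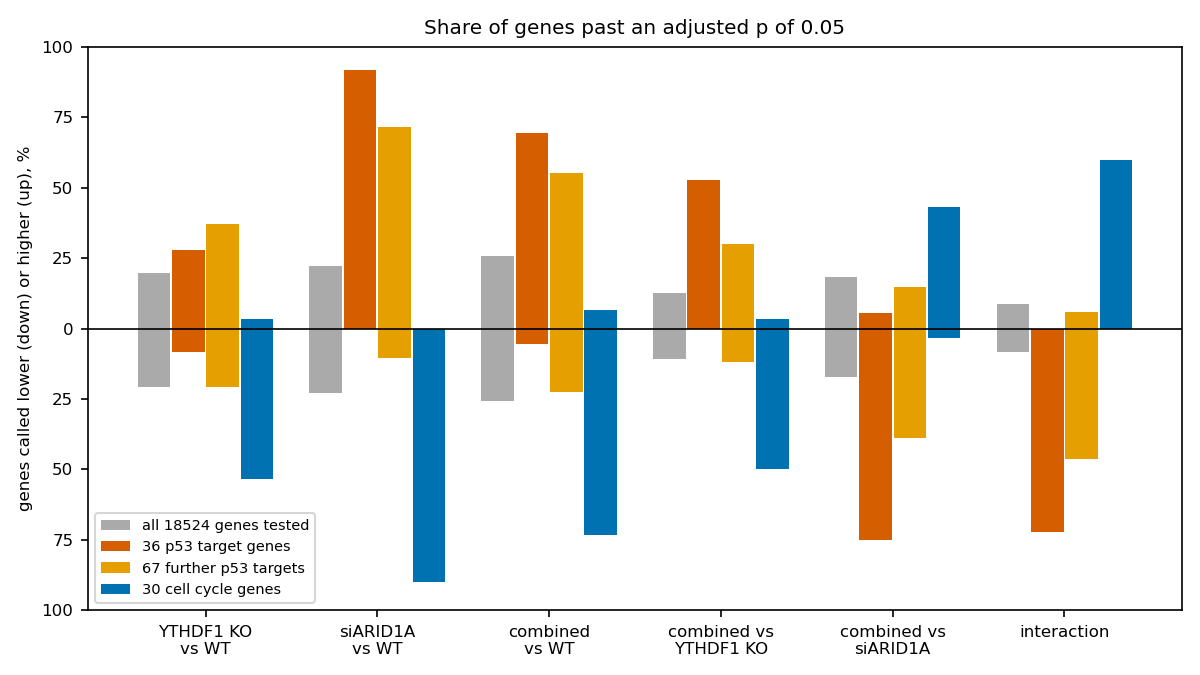
Share of genes past an adjusted p of 0.05 in each of 6 comparisons, drawn upward for genes called higher and downward for genes called lower, for all 18524 genes tested, the 36 p53 target genes, 67 further p53 targets and 30 cell cycle genes. In siARID1A vs WT the p53 targets stand almost wholly above the line and the cell cycle genes below it, and in the interaction these directions are exchanged.

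Other genes of the pathway were read from 3 further lists. Of 30 genes of the regulatory part of the pathway, 28 were tested, and with siARID1A in WT 5 rose and 12 fell (17.9% and 42.9%, against 22.1% and 23% of all genes tested), with a median of -0.165. HIPK2, a kinase of p53, fell by 0.50 (adjusted p = 9.44e-05), ATR and CHEK1, the kinases of the replication checkpoint, by 0.36 (0.000359) and 0.34 (0.00041), and SETD7, a lysine methyltransferase, rose by 0.26 (adjusted p = 0.00265). Their interaction passed for 5, with 3 positive and 2 negative (10.7% and 7.14%), shares near the 8.87% and 8.22% of all genes tested. Of 70 further p53 targets outside the 36, 67 were tested. With siARID1A in WT 48 rose and 7 fell (71.6% and 10.4%, median 0.515). In the knockout 20 rose and 8 fell (29.9% and 11.9%), where 12.5% and 10.9% of all genes tested were called. The interaction was negative for 31 and positive for 4 (46.3% and 5.97%, median -0.378). GRHL3, an epithelial transcription factor, stood at 0.447 ± 0.214 CPM in WT and 7.71 ± 0.611 in the knockout, and at 5.94 ± 1.25 with siARID1A alone and 12.6 ± 0.300 with both changes, with 3.73 (adjusted p = 6.09e-12) for siARID1A in WT and an interaction of -3.02 (adjusted p = 9.33e-08). TOB1, an antiproliferative relative of BTG2, NADSYN1, an enzyme of NAD synthesis, and TRAF4, a signalling adaptor, rose by 1.32 (adjusted p = 8.15e-12), 0.93 (adjusted p = 6.71e-11) and 0.86 (adjusted p = 3.6e-10). TOB1 also rose by 1.12 in YTHDF1 KO vs WT (adjusted p = 8.76e-11). In the combined group vs siARID1A it changed by 0.49 (adjusted p = 4.11e-05), whereas NADSYN1 changed by -0.67 (adjusted p = 1.58e-08) and TRAF4 by -0.34 (adjusted p = 0.00037). TRIM22, an antiviral ligase, had a positive interaction, at 1.66 ± 0.142 CPM in WT and 3.22 ± 0.588 in the knockout, and at 1.98 ± 0.233 with siARID1A alone and 18.3 ± 3.39 with both changes, and a value of 2.25 (adjusted p = 7.58e-07).

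Cell cycle genes known to be silenced by p21 through the DREAM repressor complex were mostly lower with siARID1A, where CDKN1A was higher. Whether p21 acted on them in these cells was not tested. Of 30 such cell cycle genes, 27 fell and 0 rose with siARID1A in WT (median -0.524), against 23% and 22.1% of all genes tested. At an unadjusted p of 0.05 edgeR's test called 0 higher, and so did DESeq2. In the knockout 15 fell and 1 rose, against 10.9% and 12.5% of all genes tested, and YTHDF1 KO alone had 16 lower and 1 higher, against 20.8% and 19.6%. CDKN1A itself did not pass in YTHDF1 KO vs WT (log2 change 0.15, adjusted p = 0.0825). The interaction was positive for 18 and negative for 0, against 8.87% and 8.22%, with a median of 0.385 and again 0 negative at an unadjusted p of 0.05 or by DESeq2. MCM5, a replicative helicase subunit, stood at 281 ± 21.3 CPM in WT and 213 ± 5.57 in the knockout, and at 149 ± 16.4 with siARID1A alone and 174 ± 9.55 with both changes, with -0.91 (SE 0.11, adjusted p = 9.45e-10) for siARID1A in WT and -0.30 (SE 0.050, adjusted p = 0.00597) in the knockout. BUB1B, a spindle checkpoint kinase, fell by 0.95 in WT (adjusted p = 1.54e-09) and by 0.33 in the knockout (adjusted p = 0.00455). CENPF and CENPE, kinetochore proteins, fell by 0.91 (5.41e-09) and 0.78 (6.07e-08) in WT. E2F1, the S phase transcription factor, fell by 0.51 (6.04e-06) in WT, and stood at 73.6 CPM in YTHDF1 KO and 75.04 in the combined group.

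Per kilobase of exon, the members spanned a wide range of levels in WT. BAX (67.1 CPM per kb), CDKN1A (51.9), TNFRSF10B (47.9) and PLK2 (40.6) were highest, and SPATA18 (2.06), SESN1 (2.04) and TP53INP1 (1.97) lowest. In siARID1A, CDKN1A (151) and TP53I3 (109) stood above BAX (90.1). Exon lengths are of the gene models in GENCODE 29 and not of the isoforms expressed.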

How the data were processed

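RNA of 12 A549 libraries was measured, 3 in each of 4 groups taken from the genotype labels. Per the submitters' processing notes, the genome build was GRCh38 and the tools were edgeR 3.32.1, featureCounts 2.0.1, STAR 2.7.0d and Trim Galore 0.6.6. The libraries were stranded and made from total RNA, per the labels' protocols. The authors deposited 1 table of raw counts per Ensembl gene. The annotation release and strand setting are not given in the sources used here, so counts of overlapping genes are uncertain. A gene name table paired 60261 of the 60617 identifiers with symbols, and GENCODE 29 gave positions and exon lengths for 58542.

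Counts were tested in R 4.3.3 with edgeR 4.0.16. All 12 libraries entered 1 fit. filterByExpr kept 18524 genes for testing and left out 42093, and TMM factors ranged over 0.912 to 1.055. Each contrast was tested by edgeR's two-sided quasi-likelihood F test with robust dispersions. P-values were adjusted by Benjamini-Hochberg over every gene tested, with a threshold of 0.05. The biological coefficient of variation was 9.44%. Every adjusted p in the text is from this test unless DESeq2 1.42.0 is named. Standard errors come from replicate SDs of log2 CPM with a prior count of 2. On simulated data with 200 changed genes, the step for siARID1A vs WT recovered 73% of genes changed by 0.5 (log2) and 99% of those changed by 1, and the interaction step 27% and 95%, over 18524 genes. At 3 libraries a group, small interactions can therefore be missed. The simulation gave every gene the same dispersion and changed only genes above about 1 CPM in WT. Recovery may be lower for genes that vary more between libraries.

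The members and the other gene lists were chosen with earlier results of these data known, so their counts are descriptions and no list was tested. Named were all 36 members, YTHDF1, ARID1A, MDM4, CDKN2A, TP63 and TP73, and of each other list up to 4 genes past the threshold with the smallest p in siARID1A vs WT and in the interaction. Single genes that the rule covers but the text does not name are not reported here. Alternatives changed the scaling, the filter, the test, the samples fitted and the replicate block, and left out each library in turn. Replicate numbers did not pair the libraries: deviations from group means correlated at -0.042 to 0.033 over 18 same-numbered pairs.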

Additional observations from a re-analysis of the deposited data

Results flagged for a closer look

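The results listed here are those whose change with siARID1A differed between YTHDF1 KO and WT cells by the test of that difference, given as the interaction on the log2 scale. Of the cell cycle and feedback members, CDKN1A had -1.17, BTG2 -1.48, GADD45A -1.23, PLK2 -0.67, PLK3 -0.69, MDM2 -0.94 and PPM1D -0.51. Of the apoptosis members, TP53INP1 had -0.95, PHLDA3 -0.96, EDA2R -0.67, TNFRSF10B -0.63, FAS -0.59, TRIAP1 -0.55, AEN -0.52 and BAX -0.49. The metabolic, stress and lysosomal members GDF15, FDXR, TP53I3, DRAM1 and TIGAR had -1.71, -1.59, -1.5, -1.13 and -0.8. SUSD6 had -1.05, CYFIP2 -0.95, SPATA18 -0.86, ZMAT3 -0.72, POLH -0.67 and DDB2 -0.47.

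ARID1A itself had 0.38. Among p53 regulators the values were 0.36 for ATR, 0.36 for CHEK1, 0.40 for ATM and -0.47 for SETD7. Among further p53 targets they were -3.02 for GRHL3, -0.62 for TOB1, -0.61 for NADSYN1, -0.29 for TRAF4, -0.70 for IER5, 2.25 for TRIM22 and 0.78 for DDIT4. GRHL3 stood at a mean of 0.447 CPM in WT, so its values rest on few counts there. IER5 differed from WT by 0.75 with the knockout alone, 0.73 with silencing alone and 0.78 with both changes. DDIT4 differed by -0.68, -0.65 and -0.55 in the same order. Silencing in knockout cells gave 0.03 for IER5 (adjusted p = 0.81) and 0.13 for DDIT4 (adjusted p = 0.298). For both genes WT thus stood apart from every other group, and the cause was not tested. The cell cycle genes MCM5, BUB1B, CENPF, CENPE and E2F1 had 0.62, 0.62, 0.60, 0.55 and 0.54. Of the marker genes, CDH1 had 0.68, KRT8 0.69, MUC1 0.98, NAPSA -1.59 and ACTA2 -1.70. The values of ARID1A, ATR, CHEK1, TRAF4, NAPSA and MUC1 did not pass in 9, 3, 1, 12, 7 and 6 of 19 alternatives.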

How the results depend on the processing

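Over the alternatives, 5173 values were recomputed for 262 pairs of a gene and a comparison. Of these values 4914 kept their direction and side of the threshold, 88 newly passed, 166 no longer passed and 5 changed sign. Leaving out 1 library at a time, members called higher in siARID1A vs WT ran from 32 to 33, in the combined group vs YTHDF1 KO from 14 to 20, and in the combined group vs WT from 22 to 26. Over all genes tested these calls ran from 3551 to 4080, 1736 to 2600 and 4226 to 4768. Members with a negative interaction ran from 26 to 30, and those lower in the combined group vs siARID1A from 23 to 29. Over all genes tested these ran from 1239 to 1758 and 2739 to 3637. Members higher and lower in YTHDF1 KO vs WT ran from 7 to 12 and from 2 to 4, and those lower in the combined group vs WT from 0 to 2. The ranges over all genes tested were 3082 to 3671, 3295 to 3869 and 4252 to 4820. When libraries were scaled by their totals alone, 17 members were higher and 1 lower in YTHDF1 KO vs WT, and 0 were lower in the combined group vs WT. This scaling moved the share of calls that were higher to 61.2% in YTHDF1 KO vs WT and 63.4% in the combined group vs WT, against 48.5% and 49.7%, to 62.2% against 51.3% in the combined group vs siARID1A, and to 63.5% against 53.5% in the combined group vs YTHDF1 KO. It moved the median of all genes by 0.135 in the combined group vs WT. Members lower in the combined group vs WT were 1 with no filter on low counts and 0 when only the libraries of both groups were fitted, and that fit called 2 members lower in the combined group vs YTHDF1 KO. Over all genes tested these calls were 4533, 4410 and 2932. With the replicate block, 33 members were higher in siARID1A vs WT, 18 in the combined group vs YTHDF1 KO (AEN lost, adjusted p = 0.058), and 26 interactions were negative. Over all genes tested the block gave 4022, 2237 and 1430 such calls. Values that changed sign without 1 library were SESN2 in YTHDF1 KO vs WT, which ran from -0.46 (without WT replicate 1) to 0.066 (without WT replicate 3), and PIDD1 in YTHDF1 KO vs WT and in the combined group vs WT, from -0.44 and -0.33 without WT replicate 3 to 0.003 and 0.10 without WT replicate 2. PIDD1 in the combined group vs YTHDF1 KO ran from -0.0054 (without combined replicate 1) to 0.16, and EPCAM in the interaction from -0.50 to 0.38 (without YTHDF1 KO replicate 2). For changes between alternatives the cause was not tested. A difference that did not pass with 3 libraries a group is not shown to be absent.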

Other observations

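The epithelial markers, which were read only to check the cell type, were called in both directions. CDH1, the adherens junction cadherin, stood at 104 ± 2.42 CPM in WT and 41.6 ± 2.62 in the knockout, and at 171 ± 15.4 with siARID1A alone and 109 ± 1.14 with both changes, a change of -1.32 (adjusted p = 1.74e-13) in YTHDF1 KO vs WT. KRT19, a keratin of simple epithelia, stood at 0.0314 ± 0.0273 CPM in WT and 0.0362 ± 0.0314 in the knockout, and at 1.02 ± 0.206 with siARID1A alone and 0.0887 ± 0.0772 with both changes, and EPCAM, an epithelial adhesion molecule, at 3.52 ± 0.388 CPM in WT and 0.785 ± 0.448 in the knockout, and at 8.14 ± 1.75 with siARID1A alone and 1.66 ± 0.177 with both changes. NAPSA, a protease of alveolar cells, stood at 0.545 ± 0.266 CPM in WT and 1.37 ± 0.504 in the knockout, and at 2.06 ± 0.627 with siARID1A alone and 1.69 ± 0.460 with both changes. KRT8 and MUC1 were the 2 tested epithelial markers lower in siARID1A than in WT, at -0.41 (adjusted p = 0.00228) and -0.63 (adjusted p = 0.0261). The call of MUC1 was lost in 7 of 20 alternatives. In YTHDF1 KO vs WT they stood at -1.69 (adjusted p = 1.94e-12) and 0.73 (adjusted p = 0.00636). Of the 9 epithelial markers tested, 2 were higher and 5 lower in YTHDF1 KO than in WT, against 19.6% and 20.8% of all genes tested. In siARID1A 4 were higher and 2 lower than in WT, against 22.1% and 23%.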
